A study of Rattus norvegicus with 151 samples.

Results

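The comparison described here is that of kidneys from rats given 500 mg/kg of pure MCHM (4-methylcyclohexanemethanol, an alicyclic alcohol used in coal washing) with kidneys from rats given the corn oil vehicle alone. Its members are 9 kidney arrays, 4 from the 500 mg/kg group (replicates 40, 41, 42 and 43) and 5 from the vehicle group of the pure MCHM set (replicates 3, 4, 5, 6 and 8), out of 151 arrays in the series. All animals were male Harlan Sprague Dawley rats aged 6 to 8 weeks that were gavaged once daily on 5 consecutive days. The remaining MCHM kidneys (0.1, 1, 10, 100 and 300 mg/kg) entered the same model, and kidneys given crude MCHM (the technical mixture) and livers given MCHM served for comparison. The labels give no time between the last dose and collection. Nothing in them states how the RNA of 1 array relates to 1 animal, so p-values measure the spread between arrays.

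Each value is a log2 intensity on an Affymetrix rat expression array, normalized by the authors with RMA (robust multi-array averaging), so that a difference of 1 is a doubling. For a bulk tissue, a higher or lower value can come from the amount of RNA per cell or from the share of cells of a type, and these cannot be told apart.

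The kidney filters blood, and its proximal tubule cells recover filtered solutes and metabolise organic acids, amino acids and foreign chemicals. Alcohols such as MCHM are generally oxidised to acids, which are then conjugated with glucuronic acid or glycine. In rats, genes of fatty acid oxidation under the nuclear receptor PPAR-alpha, glutathione transferases under the stress regulator Nrf2, and genes of dividing tubule cells are among those often followed in kidney toxicology.

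The 9 arrays carried the profile of kidney. The mean over the proximal tubule markers lay between 11.80 and 11.91 in the 500 mg/kg arrays, against 11.62 to 11.93 in the vehicle arrays. The 5' minus 3' difference of the beta-actin control probe sets, a measure of RNA integrity, lay between -1.33 and -1.17 in the 500 mg/kg arrays and between -1.31 and -1.26 in the vehicle arrays. Array medians lay between 5.35 and 5.38 in the 500 mg/kg arrays and between 5.34 and 5.36 in the vehicle arrays.

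Individual arrays stood apart in markers of fat cells or hepatocytes, and where these transcripts came from was not tested. The mean over 21 fat cell markers was 8.61 in 500 mg/kg replicate 42, where the other 500 mg/kg arrays lay between 5.71 and 5.78. In the vehicle group replicate 3 had 6.36, and the other arrays lay between 5.59 and 5.75. Outside these groups, 300 mg/kg replicate 36 had 9.61. Adipoq, the hormone adiponectin of fat cells, had 4.80, 4.90, 8.83 and 4.73 in 500 mg/kg replicates 40, 41, 42 and 43, against 6.17, 4.73, 4.62, 4.61 and 4.75 in vehicle replicates 3, 4, 5, 6 and 8. Cfd, the fat cell protease adipsin, had 9.80 in replicate 42 and 3.82 to 4.07 in the other 500 mg/kg arrays, against 6.08 in vehicle replicate 3 and 3.56 to 3.69 in the other vehicle arrays. Fabp4, a fatty acid carrier of fat cells, had 12.44 in replicate 42 and 5.48 to 6.66 in the other 500 mg/kg arrays, against 8.36 in vehicle replicate 3 and 6.08 to 7.20 in the other vehicle arrays. Plin1, the lipid droplet coat protein perilipin, was below the filter on low values, at 4.83 in replicate 42, 4.01 to 4.28 in the other 500 mg/kg arrays and 4.04 to 4.32 in the vehicle arrays. Hepatocyte markers marked another array. Their mean over 10 genes was 4.89 to 5.13 in the 500 mg/kg arrays, and in the vehicle group it was 7.01 in replicate 4 and 4.89 to 5.16 in the others. Alb, albumin, had 10.19 in vehicle replicate 4 and 3.75 to 6.14 in the other 8 arrays.

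**Figure D1:**
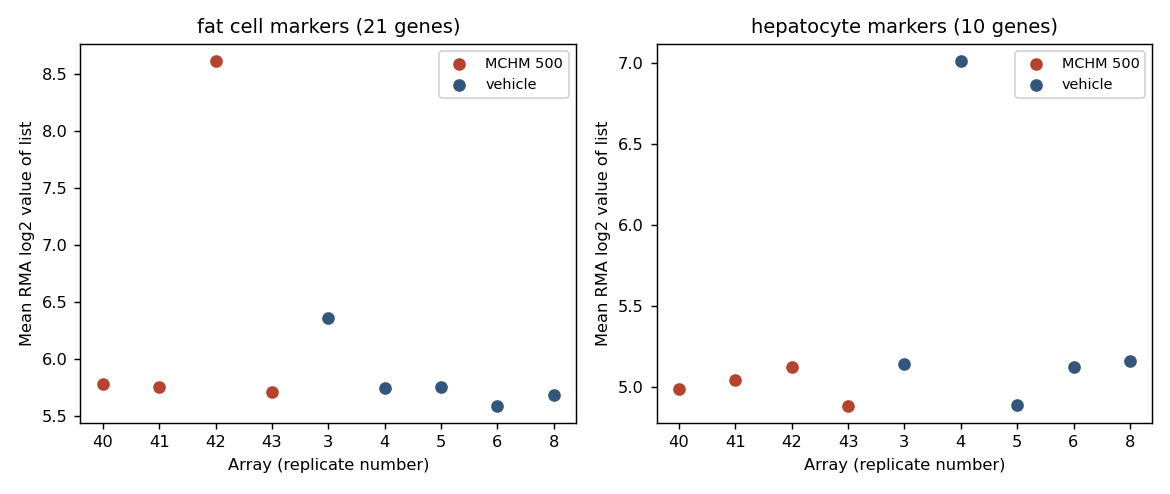
Mean RMA log2 value of the fat cell markers (left, 21 genes) and of the hepatocyte markers (right, 10 genes) in each of the 4 arrays given 500 mg/kg MCHM and the 5 vehicle arrays, 1 point per array, with replicate numbers on the x axis. Replicate 42 of the 500 mg/kg group stands at 8.61 for fat cell markers, and replicate 4 of the vehicle group at 7.01 for hepatocyte markers.

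Across the kidney, 2 genes rose and none fell at 500 mg/kg, and both of those that rose are strongly expressed in kidney. They were Hpd, which encodes the tyrosine-degrading enzyme 4-hydroxyphenylpyruvate dioxygenase, and Dnase1, which encodes the secreted endonuclease deoxyribonuclease I. Hpd was 1.40 times and Dnase1 1.83 times the vehicle level. These were 0.0177% of 11277 genes tested, at an adjusted p under 0.05 (limma, Benjamini-Hochberg over all genes tested). Neither gene was called when the fit held only the 9 arrays compared (limma adjusted p = 0.181 for Hpd and 0.192 for Dnase1) or when the 2 kidneys of the set highest in fat cell markers were left out (0.0518 for both). With array weights 61 genes were called, and with array weights but without replicate 42 there were 2.

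Without the adjustment, 681 genes (6.04%) were higher and 366 (3.25%) were lower at p under 0.05, and without replicate 42 these counts were 463 and 249. In 230 genes (2.04%) all 500 mg/kg arrays lay above all vehicle arrays, and in 128 (1.14%) all lay below, 358 (3.17%) in either direction. The median difference over all genes was 0.02. For 92.6% of genes the 95% interval of the difference lay within 1.5-fold either way, and for 98.4% within 2-fold.

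The sequence before the annotated start of both genes that rose is printed to show which letters they share. Both are 250 bases from RefSeq's promoter table (build GRCr8), 5' to 3' on the gene's strand, ending just before the start that the table uses. For Dnase1 this start lies inside the annotated span of the gene, and whether it is the start used in kidney was not tested. Capitals mark matches on either strand to AGGTCA, a core of the sites of many nuclear receptors, or to GTTAAT, a core of the sites of the tubule and liver factor HNF1.
Hpd (chr12:39041996-39042245, plus strand): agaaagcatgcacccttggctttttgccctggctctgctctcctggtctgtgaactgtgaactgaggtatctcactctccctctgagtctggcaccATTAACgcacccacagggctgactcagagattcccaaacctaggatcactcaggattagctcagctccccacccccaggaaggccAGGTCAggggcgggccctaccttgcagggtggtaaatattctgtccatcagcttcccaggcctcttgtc
Dnase1 (chr10:12008245-12008494, minus strand): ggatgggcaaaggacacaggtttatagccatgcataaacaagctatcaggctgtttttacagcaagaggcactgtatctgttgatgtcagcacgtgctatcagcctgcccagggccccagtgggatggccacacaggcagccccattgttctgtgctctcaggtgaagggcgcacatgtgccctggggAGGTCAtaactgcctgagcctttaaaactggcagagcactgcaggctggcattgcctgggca
AGGTCA occurred once in each sequence and in 14.1% of 33469 promoters of the same length. GTTAAT occurred once in Hpd, not in Dnase1, and in 6.45% of the promoters. A match describes letters only.

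Hpd had 12.65, 12.46, 12.77 and 12.46 in 500 mg/kg replicates 40, 41, 42 and 43, against 12.23, 12.10, 12.03, 12.07 and 12.09 in vehicle replicates 3, 4, 5, 6 and 8. Every 500 mg/kg array lay above every vehicle array, and the highest was the array that carried fat cell transcripts. The difference was 0.48 ± 0.0712 (SE; limma adjusted p = 0.00561). Without replicate 42 it was 0.42 (adjusted p = 0.0376). Without 500 mg/kg replicate 40 the adjusted p was 0.056, so the call was lost, and it held when any other of the 9 arrays was left out. In 8 vehicle kidneys of the crude MCHM and PPH sets, PPH being propylene glycol phenyl ether, Hpd lay between 11.75 and 12.34 (median 12.18), below the 4 arrays at 500 mg/kg.

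At the lower doses Hpd was 0.17, 0.24, 0.17, 0.19 and 0.25 above vehicle at 0.1, 1, 10, 100 and 300 mg/kg, and no dose below 500 mg/kg passed the adjusted threshold. The single highest array of the lower doses had 12.56 at 1 mg/kg, within the range of the 500 mg/kg arrays. All these doses share the 5 vehicle arrays.

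Dnase1 had 11.51, 11.45, 11.45 and 11.89 in 500 mg/kg replicates 40, 41, 42 and 43, against 11.00, 10.62, 11.00, 10.32 and 10.58 in vehicle replicates 3, 4, 5, 6 and 8. The groups did not overlap, and replicate 43 lay furthest above. The difference was 0.87 ± 0.144 (SE; limma adjusted p = 0.0156). It was 0.91 without replicate 42 (adjusted p = 0.0376). The call was lost without 500 mg/kg replicate 40 (0.89, adjusted p = 0.056), without 500 mg/kg replicate 43 (0.76, adjusted p = 0.0651), without vehicle replicate 4 (0.85, adjusted p = 0.0578) and without vehicle replicate 6 (0.77, adjusted p = 0.0772). Vehicle kidneys of the other sets had 10.30 to 10.90 (median 10.62).

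Over the lower doses Dnase1 differed from vehicle by -0.16, 0.06, 0.08, 0.14 and 0.46 at 0.1, 1, 10, 100 and 300 mg/kg. The 300 mg/kg arrays had 11.35, 10.86, 11.25 and 11.17, so 3 of the 4 lay above every vehicle array (unadjusted p = 0.00405, adjusted p = 0.832). Arrays at 100 mg/kg and below lay within or close to the vehicle range, and the highest of them had 11.02.

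**Figure D2:**
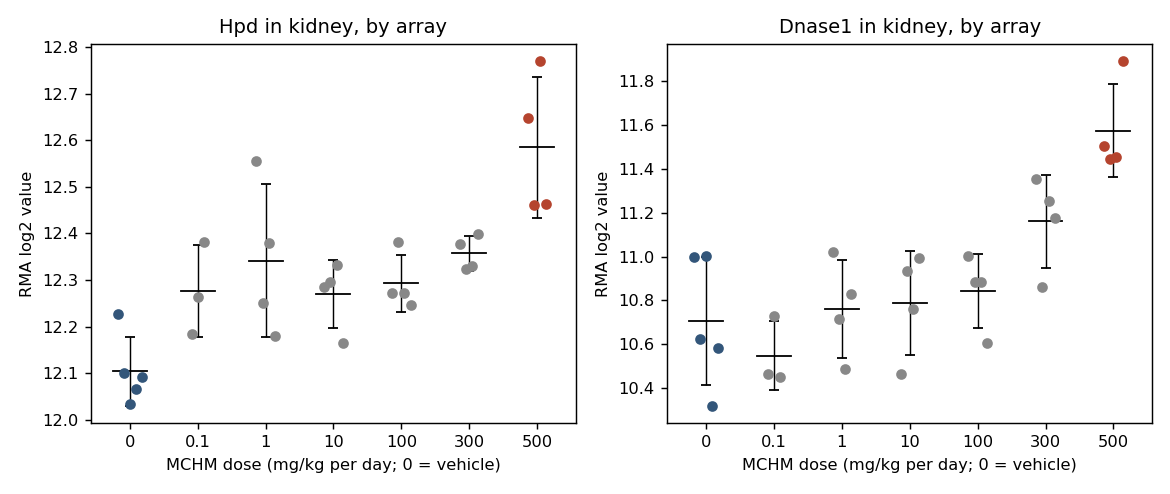
RMA log2 values of Hpd (left) and Dnase1 (right) in each kidney array of the MCHM set by daily dose in mg/kg, with 0 for vehicle; horizontal bars are group means and error bars the SD. Dnase1 averaged 11.57 at 500 mg/kg and 10.71 in vehicle; Hpd averaged 12.59 at 500 mg/kg and 12.10 in vehicle.

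The next genes in order of p did not pass the adjusted threshold and are given as values. Together with the 2 genes above, the 14 genes named on the higher side had differences of 0.24 to 0.92 and adjusted p of at most 0.100, and 12 of the 14 had groups that did not overlap. Of 14 genes named on the lower side, with differences between -1.001 and -0.22 and adjusted p between 0.0937 and 0.113, 11 had groups that did not overlap. Both counts belong to genes chosen for small p in this contrast and are a description only.

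Yars2, the mitochondrial tyrosyl-tRNA synthetase, had 8.00, 8.02, 8.00 and 8.00 in 500 mg/kg replicates 40 to 43, against 7.53, 7.76, 7.71, 7.65 and 7.63 in the vehicle arrays in the order given above. The 500 mg/kg arrays lay above all vehicle arrays of this set (0.35, adjusted p = 0.0712), while vehicle kidneys of the other sets had 7.79 to 8.06. Lgals2, a sugar-binding galectin, had 7.02, 7.03, 7.21 and 6.35 in the 500 mg/kg arrays, against 6.25, 6.16, 5.58, 5.86 and 6.09 in the vehicle arrays. Replicate 43 of the 500 mg/kg group was close to the highest vehicle array (difference 0.92, adjusted p = 0.0937). Vehicle kidneys of the other sets had 6.15 to 7.05, which overlapped the 500 mg/kg range.

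Channel and lipid genes followed among the higher values. Cacna1h, a subunit of T-type calcium channels, differed by 0.46 (adjusted p = 0.0982) and Kcnj13, an inward rectifier potassium channel, by 0.38. Cacna1h averaged 4.81 at 500 mg/kg and 4.35 in vehicle, close to the filter value of 4.66. Its other probe set, at 3.97 and 4.08 and so below that value, differed by -0.11. Lpcat3, which inserts polyunsaturated fatty acids into phospholipids, differed by 0.40. Cyp4a1, the fatty acid omega-hydroxylase controlled by PPAR-alpha in rats, had 10.71, 10.08, 10.91 and 10.37 in the 500 mg/kg arrays, against 10.17, 9.88, 9.77, 10.12 and 9.92 in the vehicle arrays. Replicate 41 lay inside the vehicle range, and the difference of 0.54 (adjusted p = 0.100) was 0.41 without replicate 42. Ccl21, a chemokine that draws lymphocytes and dendritic cells, differed by 0.81 with all arrays and by 0.64 without replicate 42, which at 7.69 was its highest array. The others were Ccdc167 (0.47), Tsx (0.61), Man2c1 (0.25), a mannosidase, Gramd4 (0.24) and Crocc (0.47), which forms the rootlet of cilia.

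On the lower side stood genes of cell division, detoxification and metabolism. Cdkn3, a phosphatase that acts on cyclin-dependent kinases, had 5.90, 5.52, 5.73 and 5.92 in the 500 mg/kg arrays, against 6.93, 6.72, 6.53, 6.65 and 7.02 in the vehicle arrays. The groups lay apart by more than their own spread (difference -1.001, adjusted p = 0.0937). Vehicle kidneys of the crude MCHM set had 7.36, 7.39 and 6.03. Akr1b8, an aldo-keto reductase that reduces aldehydes, had 4.61, 4.59, 4.35 and 4.68 in the 500 mg/kg arrays, against 5.70, 5.08, 4.98, 5.42 and 5.47 in the vehicle arrays. These groups also lay apart (difference -0.77, adjusted p = 0.0963), but 3 of its 500 mg/kg values fell below the filter value of 4.66. Me1, malic enzyme, which makes NADPH, had 8.95, 9.22, 8.73 and 9.08 in the 500 mg/kg arrays, against 9.29, 9.58, 9.30, 9.52 and 9.65 in the vehicle arrays (difference -0.47, adjusted p = 0.100).

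Of these 28 genes, Gstp1, the pi-class glutathione transferase, moved most when replicate 42 was left out. It had 11.52, 12.22, 10.72 and 12.04 in the 500 mg/kg arrays, against 12.10, 12.39, 12.80, 12.51 and 12.71 in the vehicle arrays. Replicate 42 was the lowest, and the difference of -0.88 became -0.57 without it. Tff3, a secreted trefoil peptide of the tubule, and Umod, the uromodulin of the thick ascending limb, were likewise lowest in replicate 42 among the 500 mg/kg arrays, at 11.00 and 12.37, and lowest in replicate 3 among the vehicle arrays, at 11.97 and 12.88. These are the arrays highest in fat cell markers in their groups, and the part of the fat cell transcripts in these values was not tested.

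Mbl2, a mannose-binding lectin of complement made mainly in liver, differed by -0.74 (-0.64 without the hepatocyte-marked vehicle replicate 4), and its vehicle arrays lay between 4.82 and 5.85. Its 500 mg/kg arrays had 4.86, 4.50, 4.82 and 4.61, with replicates 41 and 43 below the filter value of 4.66. Replicate 40 lay above the lowest vehicle array. The other Mbl2 probe set, at 2.86 at 500 mg/kg and 3.02 in vehicle, differed by -0.17. Tmem86a, which cleaves lysoplasmalogens, differed by -0.74. Sgms1, a sphingomyelin synthase, differed by -0.38, Col18a1, a basement membrane collagen, by -0.36, and Gsta1, an alpha-class glutathione transferase, by -0.34. Prr15 (-0.39), Ywhah, a 14-3-3 adaptor (-0.22), Rell1 (-0.43) and Kiaa1755 (-0.47) completed the set.

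**Figure D3:**
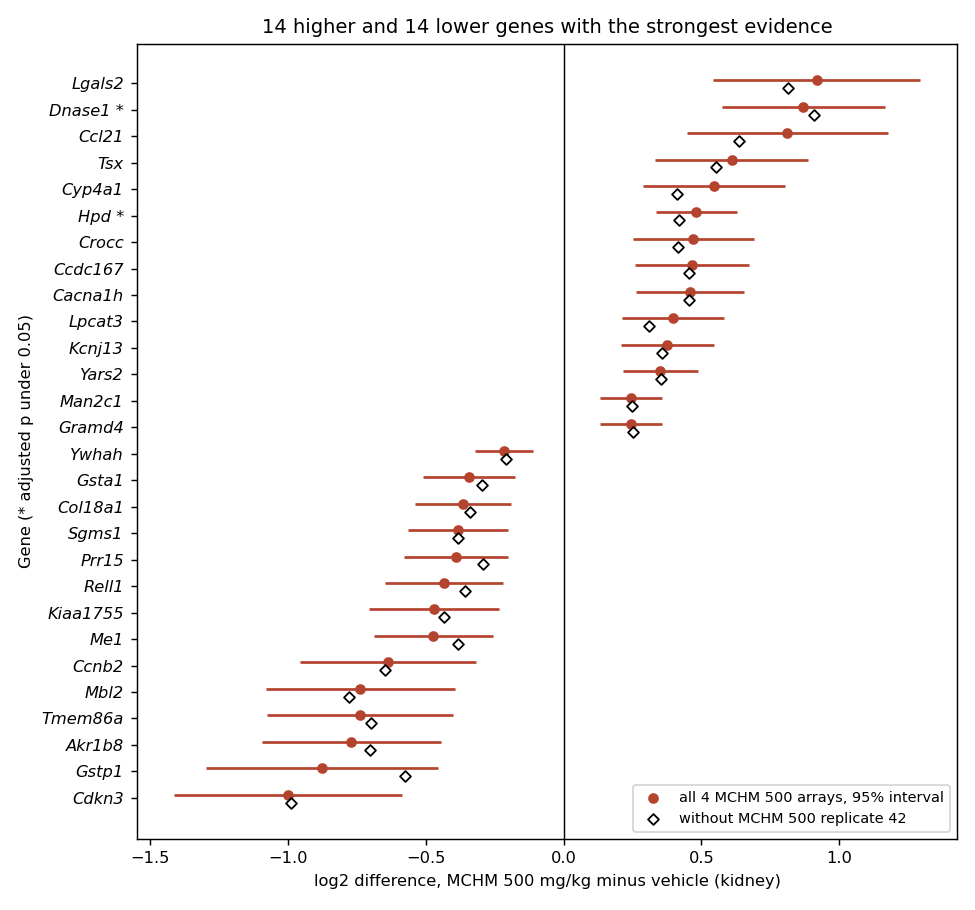
Difference in log2 units, 500 mg/kg MCHM minus vehicle kidneys, for the 14 higher and 14 lower genes with the smallest p; filled points and lines are the estimate and 95% interval with all 4 arrays, open diamonds the estimate without replicate 42, and asterisks mark adjusted p under 0.05. Hpd and Dnase1 carry the asterisks, and the diamond moves furthest for Gstp1.

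Cell division genes had the lowest median of the 25 pathway lists. Of 30 genes listed, 27 were tested, no member passed the adjusted threshold, 14 were lower and none higher at unadjusted p under 0.05, against 3.25% of all genes lower. Their median difference was -0.23, against 0.02 over all genes, and it was -0.22 with 9 members lower when replicate 42 was left out. In 11 of the 27 all 500 mg/kg arrays lay below all vehicle arrays, and in none all above (1.14% and 2.04% of all genes). Cdk1, the kinase that starts mitosis, had 6.77, 6.59, 6.75 and 6.70 in the 500 mg/kg arrays, against 7.44, 7.22, 7.04, 7.27 and 7.44 in the vehicle arrays (difference -0.58, adjusted p = 0.140). Ccnb2, cyclin B2, had 5.89, 5.63, 5.78 and 5.73, against 6.58, 6.33, 6.10, 6.31 and 6.67 in the vehicle arrays (difference -0.64, adjusted p = 0.113). For both genes the highest 500 mg/kg array lay below the lowest vehicle array.

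The mean over the 27 division genes was 6.20, 6.08, 6.12 and 6.17 in 500 mg/kg replicates 40, 41, 42 and 43, against 6.45, 6.41, 6.25, 6.39 and 6.55 in the vehicle arrays. Over the doses of 0.1 to 100 mg/kg it lay between 6.21 and 6.80. At 300 mg/kg it was 6.36, 6.28, 6.28 and 6.33, within the vehicle range. The list's median difference there was -0.07, with 1 member lower and none higher at unadjusted p under 0.05 (2.81% and 2.78% of all genes). Markers of immune cells lay on the same side: 8 of 8 lymphocyte markers (median -0.16) and 11 of 12 macrophage markers (median -0.11) had negative differences, where 4972 of all 11277 genes did. Of these, 2 lymphocyte markers and 1 macrophage marker were lower at unadjusted p under 0.05 (3.25% of all genes). Without replicate 42 the medians were -0.20 and -0.06, with 1 lower on each list. Adgre1, a macrophage surface marker, had -0.48 and Ptprc, the white cell marker CD45, had -0.35, neither past the adjusted threshold. The part of immune cells in the division genes was not tested.

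**Figure D4:**
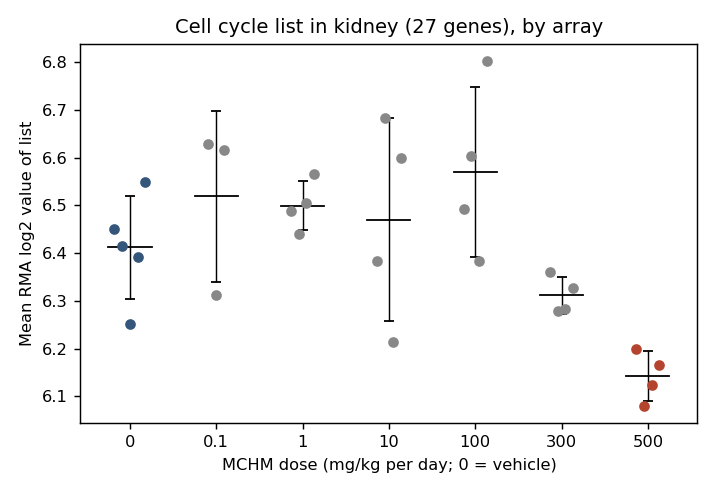
Mean RMA log2 value over the 27 cell cycle genes tested, for each kidney array of the MCHM set by daily dose in mg/kg, with 0 for vehicle; horizontal bars are group means and error bars the SD. The 500 mg/kg arrays lie between 6.08 and 6.20, below the vehicle arrays at 6.25 to 6.55.

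Among the lists of metabolism, that of medium-chain acyl-CoA synthetases and glycine conjugation had the highest median. All 8 members measured were tested, 4 were higher at unadjusted p under 0.05 against 6.04% of all genes, and the median difference was 0.18 (0.16 without replicate 42, with 3 higher). Acsm1, which activates medium-chain and aromatic acids to their CoA esters, had 9.96, 9.43, 9.77 and 9.29 in the 500 mg/kg arrays, against 9.43, 8.95, 8.83, 9.20 and 9.01 in the vehicle arrays. Replicate 43 lay below the highest vehicle array and replicate 41 level with it (difference 0.53, adjusted p = 0.114). Glyat, which joins such CoA esters to glycine, differed by 0.16 (adjusted p = 0.360). The 500 mg/kg arrays averaged 9.67 to 10.07 over the list and the vehicle arrays 9.59 to 9.77, so the groups overlapped. Replicates 40 and 42 had 10.00 and 10.07, while replicates 41 and 43, at 9.67 and 9.70, lay within the vehicle range. At 0.1 mg/kg every array, at 9.78 to 9.81, lay above all vehicle arrays. Over the doses of 0.1 to 300 mg/kg the list mean lay between 9.64 and 9.87, except for 10.05 in 300 mg/kg replicate 36.

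In cholesterol synthesis and uptake, 20 of 20 tested members had positive differences, where 6305 of all 11277 genes did. Of the 20, 4 were higher at unadjusted p under 0.05 (6.04% of all genes), and the median was 0.14 (0.13 with 3 higher without replicate 42). The list mean was 7.97 to 8.08 in the 500 mg/kg arrays and 7.76 to 7.96 in the vehicle arrays. Mvd, mevalonate diphosphate decarboxylase, differed by 0.30 and Fdps, farnesyl diphosphate synthase, by 0.18. For fatty acid synthesis the median was 0.14 with all arrays and 0.01 without replicate 42. Its members lay on both sides: Fads1, a fatty acid desaturase, differed by 0.67 and Me1 by -0.47. The PPAR-alpha list also moved with replicate 42, with 27 of 32 differences positive and a median of 0.13 with all arrays, against -0.01 without replicate 42. Within it Cyp4a1 lay at 0.54, and Cpt1a, which carries long-chain fatty acids into mitochondria, at -0.33 (adjusted p = 0.113), with all 500 mg/kg arrays below all vehicle arrays. Fat cells express many genes of both lists, and the part of fat cell transcripts in these medians was not tested.

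Among genes of detoxification, 5 of 19 Nrf2 targets and 4 of 19 glutathione transferases were lower at unadjusted p under 0.05 (3.25% of all genes), with medians of -0.07 for both lists. Without replicate 42 the Nrf2 list had 3 lower and a median of -0.10, and the glutathione transferases had 4 lower and a median of -0.04. Akr1b8, Me1, Gstp1 and Gsta1 are among these and are described above. Nqo1, a quinone reductase on the Nrf2 and AhR lists, differed by -0.41 with all arrays and by -0.20 without replicate 42. Of 14 measured CAR and PXR targets, 7 were below the filter, among them all measured Cyp3a and Cyp2c cytochromes, whose response was therefore not tested. The 7 tested had a median of -0.01 and no member at unadjusted p under 0.05. Ugt2b7, a glucuronosyltransferase, had 7.20, 6.31, 5.60 and 6.95 in the 500 mg/kg arrays, against 9.13, 7.70, 7.03, 7.49 and 8.20 in the vehicle arrays. Replicate 40 overlapped the lowest vehicle array, and the difference was -1.39 (adjusted p = 0.233). Among alcohol and aldehyde dehydrogenases, which oxidise alcohols, 2 of 15 were higher and 3 lower at unadjusted p under 0.05 (6.04% and 3.25% of all genes), against 0 higher and 2 lower without replicate 42. Aldh2, the mitochondrial aldehyde dehydrogenase, differed by -0.19 and Aldh5a1, succinate semialdehyde dehydrogenase, by 0.31.

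Markers of kidney injury did not move together. Of 25 listed, 20 were tested, 2 were higher and 1 lower at unadjusted p under 0.05 (6.04% and 3.25% of all genes), and the median was 0.03. Without replicate 42 there were 1 higher and 0 lower, and the median was 0.05. Havcr1, the tubule injury marker Kim-1, was below the filter in these kidneys. Clu, clusterin, differed by 0.32 (adjusted p = 0.449) and Tff3 by -0.90 (-0.50 without replicate 42). The p53, heat shock, hypoxia, immediate early and endoplasmic reticulum stress lists had medians between -0.02 and 0.03 (-0.05 to 0.04 without replicate 42), with no member past the adjusted threshold. In the list of gluconeogenesis, ammonia and amino acid breakdown, Hpd was the only member that rose, of 26 tested, and the median was 0.01.

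Of 17 clock genes tested, 4 were higher and none lower at unadjusted p under 0.05 (6.04% and 3.25% of all genes), with a median of 0.11 (0.05 with 2 higher without replicate 42). The list mean was 7.19 to 7.31 in the 500 mg/kg arrays and 7.04 to 7.23 in the vehicle arrays, so the groups overlapped. It lay between 7.12 and 7.43 at 0.1 to 10 mg/kg, and between 6.94 and 7.31 at 100 and 300 mg/kg. Cry1, a repressor of the clock, differed by 0.67 and Hlf, a clock output factor, by 0.51. The labels do not give the hour of collection. Other lists had medians between -0.15 (organic ion and drug transporters) and 0.08 (glucocorticoid and mineralocorticoid targets). Without replicate 42 these were -0.02 and 0.10, and the transporters lower at unadjusted p under 0.05 numbered 0 of 15, against 3 with all arrays. Mt1 and Mt2A, metallothioneins on the glucocorticoid list, differed by 0.45 and 0.41. Agt, angiotensinogen, differed by -0.61 and Ptges, a prostaglandin synthase, by 0.33, on opposite sides of a list whose median was -0.04 with all arrays and 0.04 without replicate 42.

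**Figure D5:**
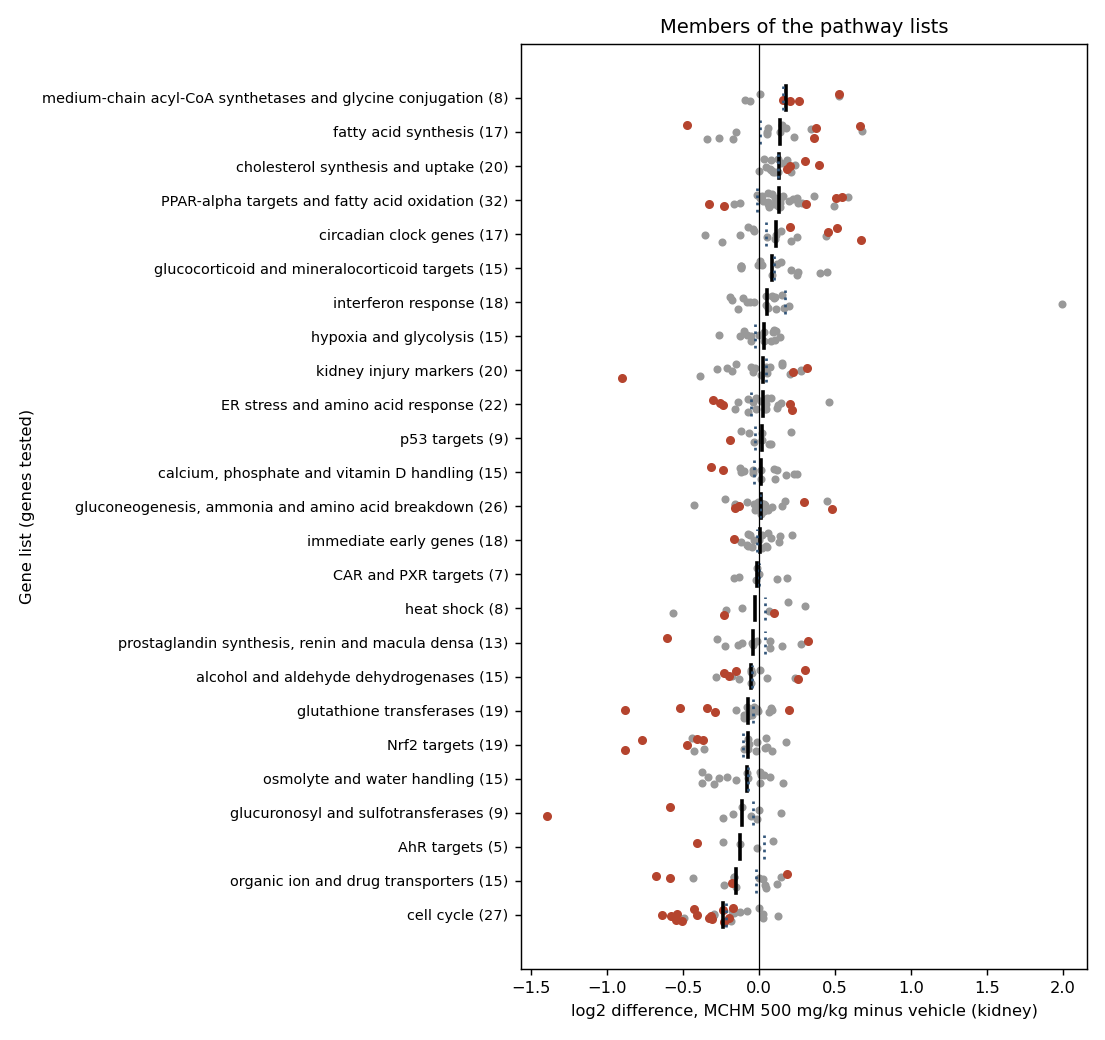
Difference in log2 units, 500 mg/kg MCHM minus vehicle kidneys, for each tested member of the 25 pathway lists, with the number tested in brackets; red points have unadjusted p under 0.05, black bars are list medians and dotted blue bars the medians without replicate 42. The cell cycle list has the lowest median, -0.23, and the glycine conjugation list the highest, 0.18.

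Among cell type markers, no member of the 18 lists passed the adjusted threshold. The fat cell list had a median of 0.70 with all arrays and -0.02 without replicate 42, and the hepatocyte list -0.56 with all arrays and 0.07 without vehicle replicate 4. The nephron segment lists had medians between -0.10 (thick ascending limb) and 0.18 (distal convoluted tubule). Without replicate 42 these were 0.04 and 0.13, so that the sign turned for the thick ascending limb. Cyp2e1, an ethanol-oxidising cytochrome counted here as a proximal tubule marker, had 11.69, 11.28, 11.65 and 11.34 in the 500 mg/kg arrays, against 11.21, 11.30, 10.81, 10.67 and 10.45 in the vehicle arrays. Only replicate 41 fell below the highest vehicle array (difference 0.60, adjusted p = 0.143).

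Large differences were few and often rested on single arrays. With all arrays 9 genes were at least 2-fold higher and 5 at least 2-fold lower, and 4 of the 9 belong to the fat cell list. Without replicate 42 the counts were 2 and 6. At 1.5-fold they were 49 higher and 41 lower with all arrays, and 17 and 21 without replicate 42. Mx2, an interferon-induced GTPase chosen after its values were seen, had 9.06, 9.55, 8.83 and 9.16 in the 500 mg/kg arrays, against 10.27, 4.54, 8.57, 8.37 and 4.02 in the vehicle arrays. Vehicle replicates 4 and 8 were low and the other vehicle arrays lay near the 500 mg/kg arrays, so the difference of 1.99 was not called (adjusted p = 0.655). RT1-Bb, a class II histocompatibility gene named for the same reason, was also low in vehicle replicates 4 and 8, at 4.43 and 4.31, where the 500 mg/kg arrays had 8.08 to 9.39.

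The same dose of crude MCHM was compared through the difference of both responses, each against its own vehicle. No gene of 11396 tested differed between MCHM and crude MCHM at an adjusted p under 0.05 (limma), and 1488 did at unadjusted p under 0.05. The precision was lower than above: for 69.9% of genes the 95% interval lay within 1.5-fold. A difference of both responses carries the error of each, and crude MCHM had 3 treated and 3 vehicle kidneys. For crude MCHM against its own vehicle the share was 79.5%. Leaving out 1 of the crude vehicle kidneys, that with Dnase1 at 10.90, gave 256 called genes in either direction. The count of 0 rests on that array.

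For Dnase1 the crude MCHM kidneys had 11.39, 11.40 and 11.52, against 10.89, 10.88 and 10.90 in their vehicle kidneys, with no overlap. Its response to crude MCHM was 0.55 (unadjusted p = 0.003, adjusted p = 0.290), and the response to MCHM minus that to crude MCHM was 0.32, with a 95% interval from -0.13 to 0.77. Hpd had 12.04, 12.23 and 12.46 in crude MCHM kidneys, against 11.75, 12.22 and 12.12 in their vehicle kidneys, and these overlapped. Its MCHM response exceeded that to crude MCHM by 0.27, with an interval from -0.01 to 0.55. For the division genes the median crude MCHM difference was -0.20, with 2 of 27 lower and 1 higher at unadjusted p under 0.05 (9.03% and 3.5% of all genes). For Cyp4a1 the crude MCHM response was 0.00, and the difference between both responses was 0.54 with an interval from 0.12 to 0.96 (adjusted p = 0.295).

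Set against liver of the same dose group, the kidney response differed in 9 of 11862 genes (0.0759%; limma adjusted p under 0.05), 1 higher and 8 lower in kidney minus liver. None of these was called when kidney replicate 42 was left out, and leaving out 1 array at a time gave between 0 and 9 higher and between 0 and 11 lower. Acly, ATP citrate lyase of fatty acid synthesis, differed by -0.17 in kidney and 0.90 in liver, a difference of -1.08 (adjusted p = 0.0370). Me1 differed by -0.50 in kidney and 0.41 in liver in this fit (difference -0.91, adjusted p = 0.0318). For both lipogenic genes the difference was positive in liver and negative in kidney. Tfpi, an inhibitor of blood coagulation, gave the 1 positive value, 0.19 in kidney and -0.45 in liver (difference 0.65, adjusted p = 0.0134). With the replicate number as a block 9 genes were again called, but 4 of them were shared with the fit without it (Asap2, Hes6, Sectm1b and Sqstm1), and Acly, Me1 and Tfpi were not called.

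Of 58 genes called in liver at 500 mg/kg, 53 were tested in kidney and none was called there. At unadjusted p under 0.05, 10 of the 53 differed in the same direction in kidney and 3 in the opposite one (6.04% of all genes were higher in kidney and 3.25% lower). The sign was that of liver in 29 of the 53, and their median kidney difference was 0.03. Cyp4a1 was among the 10, with 0.69 in liver and 0.54 in kidney. The division genes had a median of -0.34 in liver, with 14 of 25 lower and none higher at unadjusted p under 0.05 (6.94% and 6.43% of all genes), beside -0.23 and 14 of 27 in kidney. Hpd and Dnase1 had differences of 0.13 and 0.03 in liver, but the kidney minus liver differences of 0.35 (adjusted p = 0.136) and 0.84 (adjusted p = 0.138) did not pass the threshold. Dnase1 was at 5.44 in treated and 5.41 in vehicle livers.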

How the data were processed

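Total RNA of kidney and liver was kept in RNAlater, purified on Qiagen RNeasy columns and biotin-labelled, per the labels' protocols. The deposited values are log2 intensities that the authors made with RMA, per the submitters' processing notes; its version and software are not given in the sources used here. Of 31099 probe sets, 20832 had a single symbol in the platform annotation (14218 genes), 436 carried several and 9831 were unnamed here. Each gene was represented by the probe set with the highest kidney mean. A gene was tested where it exceeded 4.66 log2 units (the 40th percentile of kidney values) in at least 3 arrays. limma 3.58.1 (lmFit, eBayes; R 4.3.3, data.table version 1.17.8) was fitted to 28 MCHM kidneys in 7 groups, two-sided, with Benjamini-Hochberg adjustment. The column of 0.1 mg/kg replicate 13 was left out: it correlated with other kidneys at 0.400 as deposited and at 0.954 moved by 1 position. The number of arrays limits the precision.

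Named genes were the 14 with the smallest p in each direction (called ones first), every called member of a list or else the 2 with the smallest p, and 5 called differences in each direction for crude MCHM and liver. The comparison and the gene lists were chosen with earlier results of these data known. The fit was tested on simulated data. Alternatives were other filters, probe set rules, normalizations, array weights, variance models, arrays left out and covariates.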

Additional observations from a re-analysis of the deposited data

Results flagged for a closer look

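Over the named genes and the marker means, 19 sets of values (8.12% of those tested) held an array far from the rest of its group. In unrelated sets chance marks about 5%. These sets are not unrelated: several are fat cell markers, and some genes were named after their values were seen. The share can therefore not be set against that 5%. Replicate 42 of the 500 mg/kg group accounts for 8 of the 19. Adipoq (8.83), Cfd (9.80), Fabp4 (12.44), Cidea (12.06) and the fat cell marker mean (8.61) were high there. So were Ccl21 (7.69) and Aldh5a1 (6.42), and Kap, a proximal tubule protein, was low (14.28). Vehicle replicate 3 accounts for 4: the fat cell marker mean (6.36), Adipoq (6.17) and Cfd (6.08) were high and Nqo1 (6.69) was low.

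Dnase1 was high in 500 mg/kg replicate 43 (11.89, where the others had 11.45 to 11.51), and RT1-Ba was low in the same array (5.73, where the others had 9.22 to 9.43). Replicate 41 of that group was high in Yars2 (8.02, the others at 8.00) and Myh11 (7.22). In the vehicle group, Hp, haptoglobin of liver, was high in replicate 4 (7.03, where the others had 4.52 to 4.91), Cry1 was high in replicate 6 (6.65), and Gpd1 was low in replicate 5 (10.28).

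The kidney and liver responses to 500 mg/kg differed by the tested difference of both contrasts in Tfpi (0.65), Acly (-1.08), Me1 (-0.91), Sectm1b (-0.86), Hes6 (-0.86) and Asap2 (-0.70), each kidney minus liver. With the replicate number as a block Tfpi, Acly and Me1 were not called, and without kidney replicate 42 no gene was.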

How the results depend on the processing

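Over 22 alternatives Hpd was called in 18 (0.42 to 0.52) and Dnase1 in 15 (0.76 to 1.00), with the same sign in all 22. The counts of 2 higher and 0 lower became 40 and 21 with array weights, and 2 and 0 when replicate 42 was also left out. That alternative was added after seeing the data, as was leaving out replicate 42 and vehicle replicate 3 together (2 and 0). With all kidney arrays in 1 fit the counts were 5 and 0. With only the 9 arrays compared they were 0 and 0. The same held without the 2 kidneys of the set highest in fat cell markers, and with the column out of register included. These last 3 fits held fewer arrays or an added misplaced column, and why the calls were lost was not tested. Leaving out 1 array gave 0 to 7 higher and 0 to 3 lower: 0 and 0 without 500 mg/kg replicate 40, 5 and 3 without 41, 4 and 0 without 43, 7 and 1 without vehicle replicate 3, 1 and 0 without vehicle 4 or 6, and 3 and 1 without vehicle 8. The lower doses stayed at 0 called except at 10 mg/kg with no filter (1 lower) and at 300 mg/kg quantile normalized again (1 higher, 2 lower). The difference from crude MCHM, 0 called, had 1 with only the 4 groups compared, 3 with all kidney arrays in 1 fit, and 0 to 256 leaving out 1 array. The kidney minus liver count of 1 and 8 gave 0 to 9 and 0 to 11 leaving out 1 array, mostly an alternative added after seeing the data. For the other changes the cause was not tested either.

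Signs turned in 13 values of single named genes. Adipoq had -0.16 without replicate 42 and without the 2 kidneys highest in fat cell markers, -0.045 with the fat cell mean as a covariate, and -0.057 with array weights and replicate 42 left out. Cfd had -0.20, -0.20 and -0.020 in the first, second and last of these. Fabp4 had -0.67, -0.67, -0.38 and -0.52 in the same 4 settings, and -0.30 without replicate 42 and vehicle replicate 3. Ccng1, a p53 target at -0.06, had 0.0010 without 500 mg/kg replicate 41. Leaving out 1 array gave -0.16 to 1.20 for Adipoq, -0.20 to 1.80 for Cfd, -0.67 to 1.65 for Fabp4 and -0.12 to 0.0010 for Ccng1. Otherwise 38 values of single genes crossed the threshold upwards and 11 downwards for 500 mg/kg against vehicle. For kidney minus liver, 50 values lost the threshold and 76 kept it.

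The labels do not tie liver and kidney of 1 number to 1 animal. Deviations from the group means correlated by number at 0.025 to 0.248 over 27 pairs, 20 of them over 0.1, and 21 kidneys correlated best with the liver of their own number, a hint from the data. With the replicate number as a block the tissue difference had 1 higher and 8 lower, and 4 of the 9 genes were shared with the fit without it. No paired analysis was possible because the 500 mg/kg and vehicle kidneys share no number.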

Other observations

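A few genes had high and low arrays in both tissues. Mx2 in liver had 6.91, 6.89, 5.84 and 7.52 in 500 mg/kg replicates 40, 41, 42 and 43, against 6.71, 4.94, 6.06, 6.81 and 4.32 in vehicle replicates 3, 4, 6, 7 and 8. The low vehicle numbers, 4 and 8, were also the low ones in kidney. RT1-Ba, a class II histocompatibility gene, had 8.22, 8.34, 8.23 and 4.47 in the same 500 mg/kg livers, against 8.54 to 10.21 in vehicle livers, and number 43 was low in kidney as well, at 5.73. RT1-Bb had 6.47 to 8.10 in 500 mg/kg livers, against 7.14, 3.95, 7.30, 4.35 and 4.32 in vehicle replicates 3, 4, 6, 7 and 8. These genes were chosen after their values were seen.

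Rup2, a urinary protein made in liver, had 2.98, 3.34, 3.89 and 3.33 in 500 mg/kg kidneys 40, 41, 42 and 43, against 5.54, 8.26, 3.39, 3.62 and 3.55 in vehicle kidneys 3, 4, 5, 6 and 8. Its value was highest in the vehicle kidney with the highest hepatocyte markers. Cndp1, a carnosine dipeptidase, had 7.22, 8.97, 8.08 and 8.24 in the 500 mg/kg kidneys, against 8.41, 8.31, 10.47, 9.82 and 10.53 in the vehicle kidneys (difference -1.38, limma adjusted p = 0.357).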
